A study of Mus musculus with 4 samples.

Results

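The genes described here build the acid interior of the lysosome and the bone-facing acid compartment of the osteoclast, together with the cathepsins that work in them. They are the genes of the count matrix whose symbols begin with Atp6v or Atp6ap, plus Tcirg1, Clcn7, Ostm1, Lamp1, Lamp2 and the cathepsin genes Ctsa, Ctsb, Ctsc, Ctsd, Ctsh, Ctsl, Ctss and Ctsz. This gave 38 of the 31053 genes in the matrix, and all 38 were found in the GENCODE M21 annotation. They comprise 10 genes of the membrane part of the proton pump (V0, Tcirg1 included), 13 of its cytoplasmic part (V1), 3 accessory genes, 2 of the lysosomal chloride-proton exchanger, 2 membrane glycoproteins and 8 cathepsins. The cells came from the proximal and distal tibia of 1 male mouse at postnatal day 6, from a pool of 2 tibiae, sequenced as 1 library with 4 sequencing entries. The mouse was Col10a1Cre;Rosa26-Tdtomato;Irx3 +/Δ;Irx5 +/-, described as an Irx3/5 heterozygous control, so every cell group shared this genotype and no wild-type animal was compared. Col10a1Cre marks hypertrophic chondrocytes and their descendants with tdTomato. With 1 library there is no replicate, so no test or p-value is given, and every interval is a 95% interval that covers counting error only.

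Of 14181 barcodes, 8255 cells were kept, with 2623 to 85279 UMIs per cell (unique molecular identifiers, each counting 1 captured transcript) and a median of 13957. Cell classes were rebuilt from marker genes, with the 38 genes left out of the clustering, and are therefore called "-like"; 2 of 28 clusters and a small set of phagocytes, 214 cells in all, had no name. The groups compared were 166 osteoclast-like cells, 217 macrophage-like cells, 2668 other leukocytes and 3448 skeletal cells, at medians of 24316.5, 12338, 10959.5 and 17913 UMIs per cell. The 11 osteoclast markers summed to 7378 UMIs per 1000000 UMIs of the class (CPM) in osteoclast-like cells and 701 CPM in macrophage-like cells. Of these markers, 8 reached 10 CPM in osteoclast-like cells and Calcr was at 0. The 11 macrophage markers summed to 8562 CPM in macrophage-like cells, where 10 of them reached 10 CPM, and to 1166 CPM in osteoclast-like cells. A C1q UMI was present in 105 of the 166 osteoclast-like cells, and in 88 of the 2668 other leukocytes at their lower depth. A UMI of Ctsk, Ocstamp or Dcstamp was present in 42 of the 217 macrophage-like cells. A sub-cluster of 69 osteoclast-like cells held 9484 CPM of the haemoglobin gene Hbb-bs, and a sub-cluster of 11 macrophage-like cells held 25380 CPM of the neutrophil gene S100a8. Between osteoclast-like and macrophage-like cells, counts of genes past 2-fold and summed levels are also given without these cells. Most values of single genes, and the split by Ctsk, are given only with them. Hbb-bs was also high in some classes used for comparison, and no cells were left out there for it. It was 36645 CPM in a monocyte-like cluster of 202 cells and 1842 CPM in the other monocyte-like cluster. Marrow stroma-like cells held 27828 CPM and T or NK-like cells 51378 CPM.

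The vacuolar H+-ATPase (V-ATPase) is a rotary proton pump: V1 splits ATP in the cytoplasm and V0 carries protons through the membrane. Most cells use it to acidify endosomes and lysosomes, where cathepsins and other hydrolases need a low pH. Osteoclasts also place the pump in the plasma membrane that faces bone, dissolve the mineral with the secreted acid, and digest the matrix mainly with cathepsin K. Several subunits are encoded by more than 1 gene, and the osteoclast is known for using the a3 subunit, encoded by Tcirg1, and the d2 subunit, encoded by Atp6v0d2. ClC-7, encoded by Clcn7, and its partner Ostm1 balance the charge of the pumped protons, and loss of Tcirg1, Clcn7 or Ostm1 causes osteopetrosis. Macrophages use the same organelle to degrade what they engulf.

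Many lysosomal genes carry in their promoters the palindromic E-box CACGTG with a T before it or an A after it, a form bound by the MiT/TFE transcription factors. RefSeq promoter sequences on GRCm38.p6, from 250 bases before to 50 bases after each start, were at hand for 29 of the 38 genes. Atp6ap1l, Atp6v0a2, Atp6v0d2, Atp6v1b2, Atp6v1c1, Atp6v1g1, Atp6v1h, Ctsb and Ctsh had none. CACGTG, which reads the same on both strands, was found for 9 of the 29 genes (31.03%), against 8.09% of 27025 genes with a promoter. The extended form TCACGTG, or CACGTGA as its other strand, was found for 8 of the 29 (27.6%), against 4.29% of all genes; every extended form also contains CACGTG. Counted by promoter rather than by gene, the extended form stood in 22.2% of the 36 promoters of these genes and in 3.77% of 32851 promoters. The windows below show, for each of the 8 genes, a 30-base stretch around the extended form nearest to the start, written 5′ to 3′ on the gene's strand with the motif in capitals, so that the match can be read in each gene that holds it. No other motif was searched, and most of the 29 genes do not hold this one.
Atp6v0b: gggtcggcgcaTCACGTGcgccggtcaggt
Atp6v0d1: ccctactgcggTCACGTGAgacgcggtgcg
Atp6v0e: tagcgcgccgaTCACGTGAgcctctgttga
Atp6v1a: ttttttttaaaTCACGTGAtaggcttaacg
Clcn7: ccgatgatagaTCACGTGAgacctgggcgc
Ctsa: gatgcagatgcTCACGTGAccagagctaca
Ctsd: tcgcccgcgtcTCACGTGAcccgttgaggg
Lamp1: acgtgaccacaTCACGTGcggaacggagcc
They lie at chr4:117887330-117887359 (minus strand) for Atp6v0b, chr8:105566050-105566079 (minus) for Atp6v0d1, chr17:26676387-26676416 (plus) for Atp6v0e and chr16:44139373-44139402 (minus) for Atp6v1a. Those of Clcn7, Ctsa, Ctsd and Lamp1 are at chr17:25133386-25133415 (plus), chr2:164833766-164833795 (plus), chr7:142387908-142387937 (minus) and chr8:13159134-13159163 (plus). In 7 of these 8 genes a motif began within 98 bases upstream of the start or just after it, and in Atp6v1a it began 131 bases upstream. Lamp1 held 4 extended forms, and Atp6v0b, Clcn7 and Ctsa held 2 each. A match describes these letters and does not show that a factor binds there.

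Across 16 named classes, 31 of the 38 genes reached 10 CPM in at least 1 class. Osteoclast-like cells had the highest level of 15 of the 31, where they had it for 7.02% of the 12007 genes that reached 10 CPM in a class. The 15 were all pump genes (4 of V0, 8 of V1 and the accessory gene Atp6ap2) or the exchanger genes Clcn7 and Ostm1. Macrophage-like cells had the highest level of 10, where they had it for 5.52% of all these genes, and 7 of the 10 were cathepsins; the others were Lamp1, Atp6v0d1 and Atp6ap1. The remaining 6 peaked elsewhere: Ctsh in dendritic cell-like cells, Atp6v0a2 in endothelial-like cells, Atp6v0a1 in erythroid-like cells, Atp6v0a4 in hypertrophic chondrocyte-like cells (a class that includes pre-hypertrophic ones), Atp6v0e2 in fibroblast-like cells and Lamp2 in marrow stroma-like cells. Several first places were close. Atp6v0a1 was 46.1 CPM in erythroid-like cells (interval 42.3 to 50.2) and 43.9 CPM in macrophage-like cells (36.8 to 52.0). Ctsh was 418 CPM in dendritic cell-like cells and 390 CPM in macrophage-like cells. In both cases the first 2 places were not separated by their intervals. Ctsl was 497 CPM in macrophage-like cells (472 to 522), and its levels in endothelial-like and fibroblast-like cells lay within that interval. For Clcn7 and Ostm1 the level intervals of osteoclast-like and macrophage-like cells overlapped, though the intervals of their ratios excluded equal levels. Atp6v0e2 passed 10 CPM only narrowly in fibroblast-like cells. Other first places may be close as well.

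**Figure D1:**
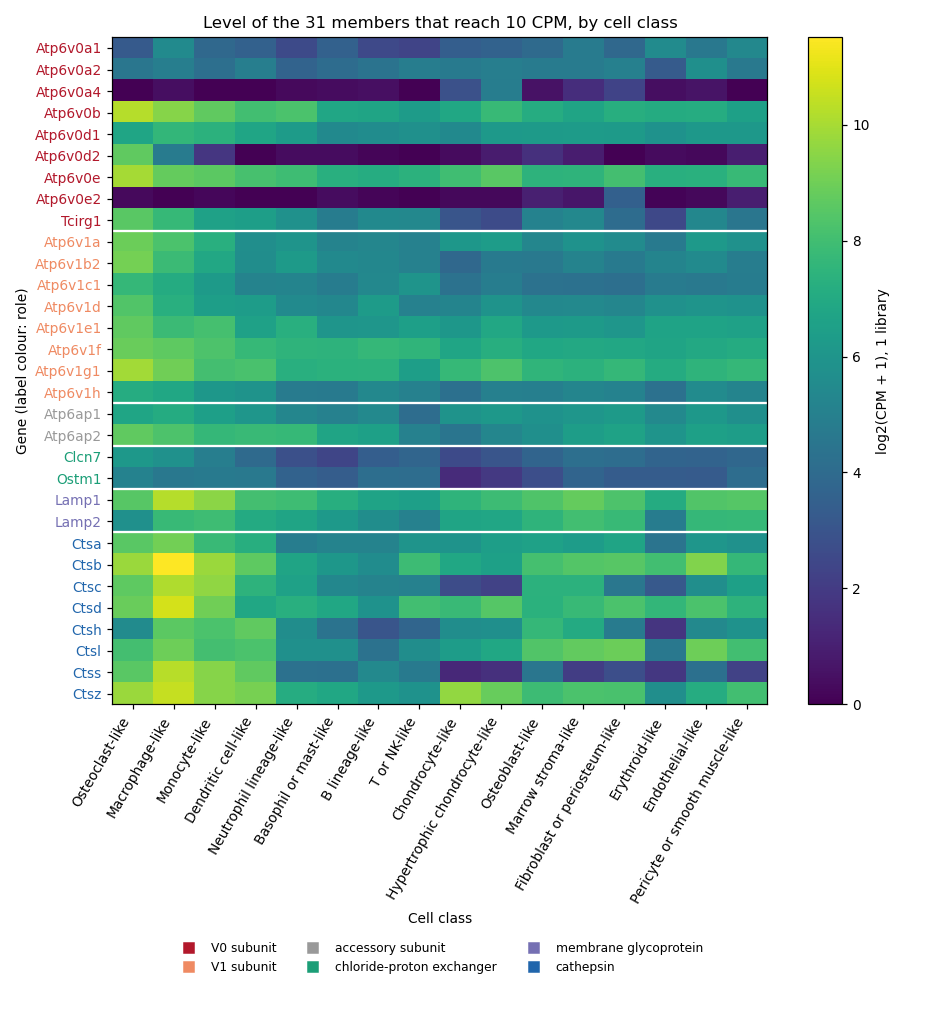
Level of the 31 genes that reach 10 CPM in a class, as log2(CPM + 1) by colour, in 16 cell classes of 1 library; gene labels are coloured by role and white lines part the roles. Most pump rows are brightest in the osteoclast-like column and most cathepsin rows in the macrophage-like column.

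The 7 genes that stayed under 10 CPM in every class were the paralogues Atp6v1b1, Atp6v1c2, Atp6v1e2, Atp6v1g2 and Atp6v1g3, the accessory paralogue Atp6ap1l, and Atp6v0c. No UMI of Atp6v1g3 was counted in the kept cells, which in osteoclast-like cells allows up to 0.717 CPM by a limit of 3 counts and up to 0.882 CPM by the 95% interval. Of the genes of V1 subunits B, C, E and G, therefore, Atp6v1b2, Atp6v1c1, Atp6v1e1 and Atp6v1g1 were those that reached 10 CPM. Atp6v0c encodes the c subunit of the proton-carrying ring, without which no pump is known to work, yet it was counted at 3.59 CPM in osteoclast-like cells and at 1.65 CPM in macrophage-like cells. The annotation holds 2 further genes named after it, Atp6v0c-ps1 and Atp6v0c-ps2, so its count is uncertain where reads could be shared with a near-identical copy.

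The comparison of osteoclast-like with macrophage-like cells asks how the pump and the cathepsins are balanced in a bone-resorbing and in an engulfing phagocyte. The 26 V-ATPase genes together reached 7194 CPM in osteoclast-like cells (7113 to 7276) and 4150 CPM in macrophage-like cells (4078 to 4224). The 8 cathepsins went the other way, with 3690 CPM (3632 to 3748) against 9864 CPM (9752 to 9976). The summed pump level divided by the summed level of these 8 cathepsins was thus 1.95 in osteoclast-like cells and 0.421 in macrophage-like cells. Ctsk, the gene of cathepsin K, is not among the 8 and is left out of both sums and ratios. It was 2432 CPM in osteoclast-like cells and 66.0 CPM in macrophage-like cells. Of the 38 genes, 29 had at least 10 CPM in 1 of both groups. Among them 4 were at least 2-fold higher in osteoclast-like cells, where 8.0% of all 8027 genes compared were, and 8 were at least 2-fold lower, where 14.4% were; 17 lay between. The median log2 ratio was 0.67 over the 17 pump genes compared and -1.61 over the 8 cathepsins, beside 0.04 over all genes. The 4 higher genes were Atp6v0d2, Atp6v1b2, Atp6v0e and Atp6v1d. The 8 lower genes were Ctsb, Ctsc, Ctsd, Ctsh, Ctss, Lamp1, Lamp2 and Atp6v0a1.

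**Figure D2:**
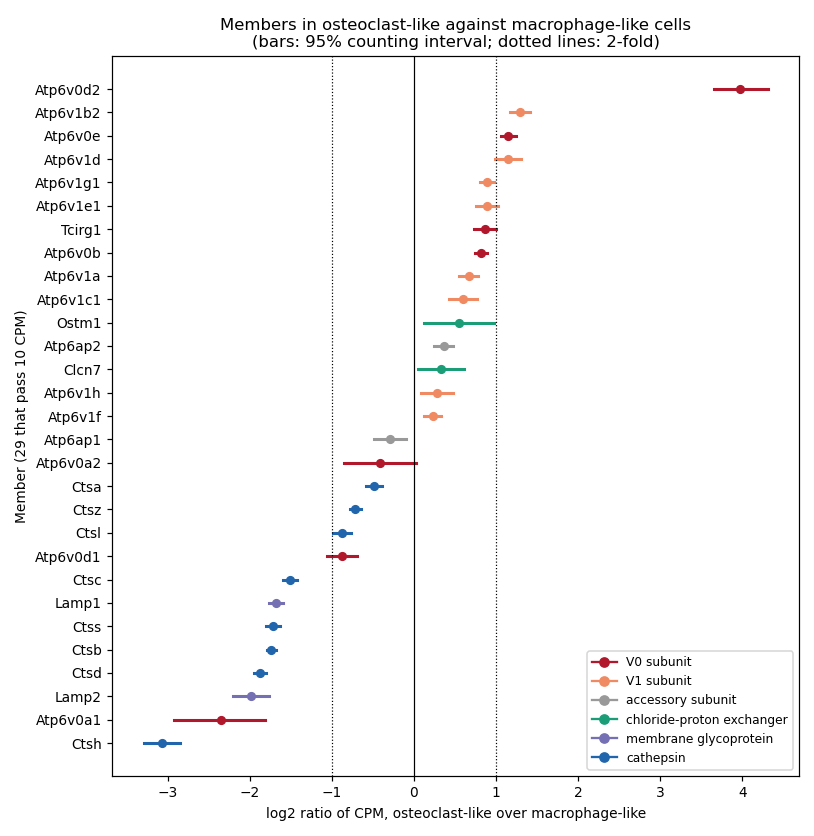
Log2 ratio of CPM in osteoclast-like over macrophage-like cells for the 29 genes with at least 10 CPM in 1 of both, with 95% counting intervals; colour gives the role and dotted lines mark 2-fold. All 8 cathepsins and both Lamp genes lie left of 0, and all 8 V1 genes lie right of 0.

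Among V0 genes, the d subunit joins the ring to the central stalk. Atp6v0d2 (ENSMUSG00000028238, GRCm38 chromosome 4, 19876841 to 19922605, minus strand) was 419 CPM in osteoclast-like cells (400.1 to 439.6), 26.7 CPM in macrophage-like cells (21.2 to 33.2), 0.660 CPM in other leukocytes and 0.852 CPM in skeletal cells. The log2 ratio to macrophage-like cells was 3.97 (3.65 to 4.31). After each cell was thinned to 5000 UMIs, 63.9% of osteoclast-like cells had a UMI of it, against 5.63% of macrophage-like cells, 0.523% of monocyte-like cells and 0.143% of chondrocyte-like cells. Its paralogue Atp6v0d1, expressed in every class, was lower in osteoclast-like cells (107 CPM, 96.9 to 117) than in macrophage-like cells (195 CPM, 180 to 212), with a log2 ratio of -0.87 (-1.06 to -0.70). Atp6v0d2 therefore made up 79.7% of the UMIs of both d genes in osteoclast-like cells (exact Clopper-Pearson interval 78.0 to 81.4), 12.04% in macrophage-like cells (9.67 to 14.7), 1.502% in monocyte-like cells (0.861 to 2.43) and 1.36% in skeletal cells (1.03 to 1.75). Such shares are set side by side between classes, since the capture of different genes may differ. Within the macrophage-like class, Atp6v0d2 was 14.4 and 19.99 CPM in the larger sub-clusters of 122 and 84 cells and 128 CPM in the 11 cells rich in S100a8.

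Subunit a carries the proton channels and determines where the pump is sent. Tcirg1 (ENSMUSG00000001750, chromosome 19, 3896050 to 3907133, minus strand) was 375 CPM in osteoclast-like cells (357 to 394), 206 CPM in macrophage-like cells (190.5 to 223), 59.1 CPM in other leukocytes and 14.7 CPM in skeletal cells. Its log2 ratio to macrophage-like cells, 0.86 (0.727 to 0.998), stayed under 2-fold. Atp6v0a1 (chromosome 11, 101009452 to 101063719, plus strand) showed the opposite order, with 8.605 CPM against 43.9 CPM and a log2 ratio of -2.35 (-2.93 to -1.81). Atp6v0a2 was 21.8 CPM and 29.1 CPM, and the interval of its log2 ratio, -0.86 to 0.02, included 0. Atp6v0a4 had no UMI in osteoclast-like cells. Tcirg1 gave 92.5% of the UMIs of the 4 a-subunit genes in osteoclast-like cells (91.2 to 93.7) and 73.8% in macrophage-like cells (70.7 to 76.7). In monocyte-like cells (75.2%, 72.0 to 78.2) and neutrophil lineage-like cells (76.8%, 74.1 to 79.4) the share was close to that of macrophage-like cells, with overlapping intervals. Skeletal cells as a group had 23.0% (21.7 to 24.3).

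**Figure D3:**
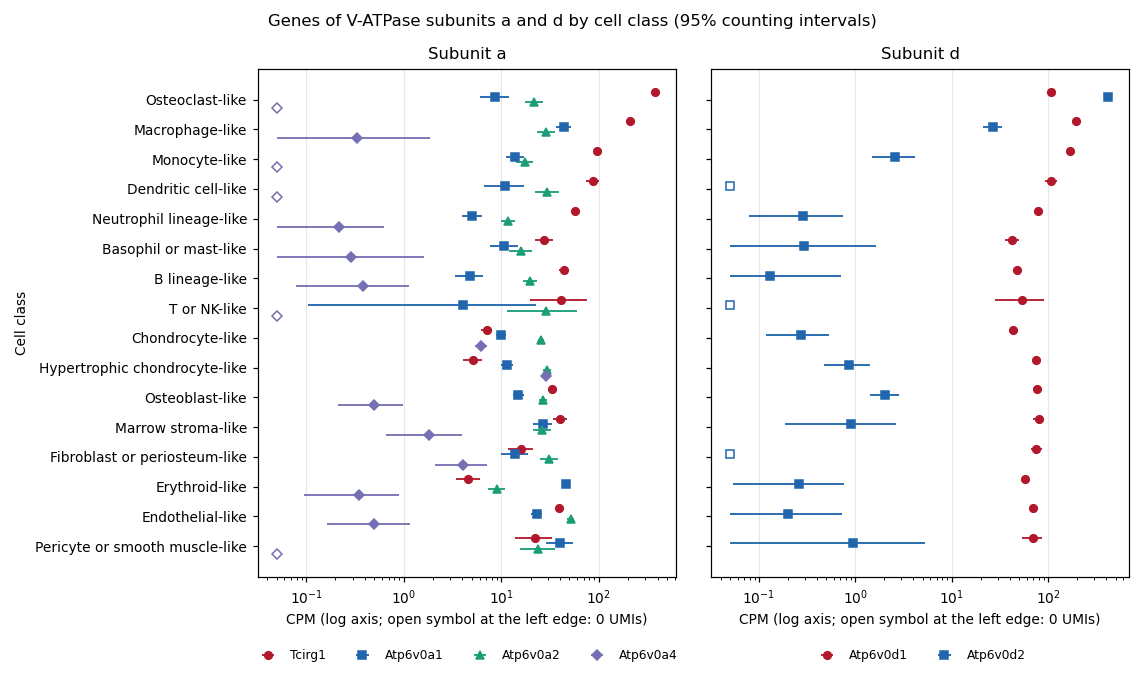
Level in CPM, on a log axis, of the 4 genes of V-ATPase subunit a (left) and the 2 genes of subunit d (right) in 16 cell classes of 1 library, with 95% counting intervals; open symbols at the left edge stand for 0 UMIs. Atp6v0d2 is above Atp6v0d1 in the osteoclast-like class alone of the 16, and Atp6v0a4 is above 10 CPM in the hypertrophic chondrocyte-like class alone.

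The other V0 genes differed less. Atp6v0e, of the small e subunit, was 980 CPM in osteoclast-like cells and 442 CPM in macrophage-like cells (log2 ratio 1.15, 1.06 to 1.24), while its paralogue Atp6v0e2 had 1 UMI in osteoclast-like cells and none in macrophage-like cells. Atp6v0b, of the c'' subunit in the ring, was 1210 CPM and 685 CPM (log2 ratio 0.82, 0.75 to 0.90). Hence 4 of the 7 V0 genes compared lay on the higher side in osteoclast-like cells and 3 on the lower side. This split has no background, since the share of all genes on each side was not counted. The 3 genes on the lower side (Atp6v0a1, Atp6v0a2 and Atp6v0d1) are paralogues of genes on the higher side. For Atp6v0a2 the interval did not exclude equal levels, so its side is not settled.

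All 8 V1 genes compared had log2 ratios above 0 with intervals that excluded 0, from 0.23 for Atp6v1f (0.13 to 0.33) to 1.29 for Atp6v1b2 (1.17 to 1.42). The share of all genes with such intervals was not counted, so this count has no background. With cells thinned to 5000 UMIs, Atp6v1h, of the regulatory H subunit, went from 0.28 to -0.01, and the other 7 stayed above 0. Atp6v1b2, which with Atp6v1a forms the ATP-splitting head, was 552 CPM in osteoclast-like cells (529 to 575) and 226 CPM in macrophage-like cells (209 to 243). Atp6v1a was 483 CPM and 304 CPM (log2 ratio 0.67). Atp6v1d, of the central stalk, was 336 CPM and 152 CPM (log2 ratio 1.15, 0.99 to 1.30). Atp6v1g1 and Atp6v1e1, of the outer stalks, were 952 CPM against 512 CPM and 419 CPM against 227 CPM. Atp6v1c1, which bridges V1 and V0, was 200.1 CPM against 132 CPM (log2 ratio 0.60, 0.42 to 0.77). The summed V1 level was 3551 CPM against 2070 CPM, and the summed V0 level 3126 CPM against 1630 CPM. Of the accessory genes, Atp6ap2 was 408 CPM against 317 CPM (log2 ratio 0.36) and Atp6ap1 was 108 CPM against 132 CPM (log2 ratio -0.29, -0.49 to -0.10).

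Both exchanger genes were higher in osteoclast-like cells, by less than 2-fold. Clcn7 was 69.1 CPM in osteoclast-like cells (61.3 to 77.5) and 55.1 CPM in macrophage-like cells (47.1 to 64.2), with a log2 ratio of 0.32 (0.05 to 0.61) that was -0.13 at a limit of 5% mitochondrial UMIs. Ostm1 was 33.7 CPM (28.4 to 39.7) and 23.1 CPM (18.02 to 29.2), with a log2 ratio of 0.54 (0.12 to 0.98). Both genes stood further from the other groups taken as a whole. Clcn7 was 11.6 CPM in other leukocytes and 8.35 CPM in skeletal cells, and Ostm1 was 15.9 CPM and 3.76 CPM there. Among other leukocytes, monocyte-like cells were closer. The log2 ratio of macrophage-like to monocyte-like cells was 0.91 for Clcn7 and -0.17 for Ostm1, so Ostm1 was slightly higher in monocyte-like cells. Lamp1 and Lamp2, glycoproteins that line the lysosomal membrane, were instead lower in osteoclast-like than in macrophage-like cells. Lamp1 was 367 CPM in osteoclast-like cells and 1178 CPM in macrophage-like cells (log2 ratio -1.68, -1.77 to -1.60). Lamp2 was 53.8 CPM (47.0 to 61.3) against 212 CPM (196 to 229), below its 115 CPM in other leukocytes and 137 CPM in skeletal cells. Its log2 ratio to other leukocytes, -1.10, was under 2-fold at a minimum of 1000 genes per cell (-0.85) and with 10 CPM added (-0.97), whereas its ratios to macrophage-like and skeletal cells, -1.98 and -1.35, stayed past 2-fold in all 16 alternative settings.

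Of the 8 cathepsins, none was higher in osteoclast-like than in macrophage-like cells, and 5 were at least 2-fold lower. Cathepsin H, an aminopeptidase encoded by Ctsh (chromosome 9, 90054152 to 90076089, plus strand), had the lowest log2 ratio, -3.07 (-3.29 to -2.85), with 46.6 CPM against 390 CPM. Ctsd, of the aspartic protease cathepsin D, was 473 CPM against 1732 CPM (log2 ratio -1.87). Ctsb, of the cysteine protease cathepsin B, was 873 CPM against 2907 CPM (log2 ratio -1.74, -1.79 to -1.68). Ctss, whose product trims the invariant chain in antigen-presenting cells, was 382 CPM against 1251 CPM (log2 ratio -1.71). Ctsc, whose product activates granule serine proteases, was 398 CPM against 1132 CPM (log2 ratio -1.51). The other three were less far apart: Ctsl at 271 CPM against 497 CPM (log2 ratio -0.87), Ctsz at 871 CPM against 1427 CPM (-0.71), and Ctsa, of the protective protein of the lysosomal neuraminidase complex, at 376 CPM against 527 CPM (-0.49, -0.59 to -0.38).

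These sums held cell by cell with some overlap. The pump genes took 0.622% of the UMIs of the median osteoclast-like cell (quartiles 0.434% and 0.871%) and 0.410% of the median macrophage-like cell (0.348% and 0.474%). Of osteoclast-like cells, 79.5% were above the macrophage-like median, and 4.15% of macrophage-like cells were above the osteoclast-like median. The cathepsins took 0.329% of the median osteoclast-like cell (0.242% and 0.478%) and 0.961% of the median macrophage-like cell (0.767% and 1.23%), with 1.81% of osteoclast-like cells above the macrophage-like median and 98.2% of macrophage-like cells above the osteoclast-like one. Cells are not replicates, so these shares describe the spread within 1 library.

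**Figure D4:**
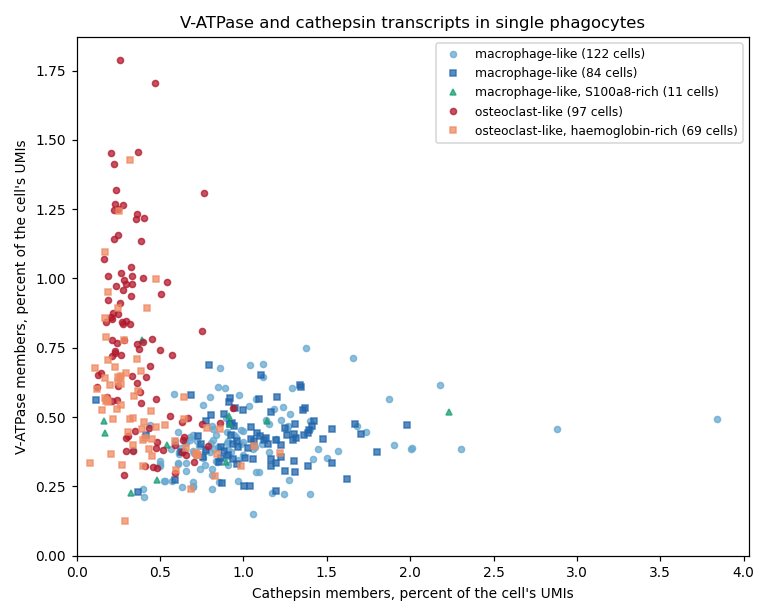
Percent of a cell's UMIs in the 26 V-ATPase genes against the percent in the 8 cathepsin genes, 1 point per cell, for 166 osteoclast-like and 217 macrophage-like cells coloured by sub-cluster. Osteoclast-like cells spread upwards at low cathepsin percent, macrophage-like cells spread to the right at low V-ATPase percent, and both meet near the lower left.

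Osteoclast-like cells differed among themselves in step with Ctsk, the gene of cathepsin K, which was one of the genes that named the class. No Ctsk UMI was counted in 61 of the 166 cells, and the other 105 were split at their median of 2666 CPM, near which 18 cells lay within 1.5 times. The summed pump level was 4366 CPM (4250 to 4484) without Ctsk, 6421 CPM (6292 to 6551) at lower Ctsk and 10356 CPM (10192 to 10522) at higher Ctsk. Of the 17 pump genes at 10 CPM in one of these parts, 14 were higher at each step, where 21.3% of all 8055 genes at that level were, and 1, Atp6v0a2, was lower at each step (26.7 CPM, 22.3 CPM and 17.04 CPM, with overlapping intervals). Atp6v0d2 had the widest range, with 79.3 CPM, 321 CPM and 806 CPM, and Atp6v1g1 went from 423 CPM to 807 CPM and 1543 CPM. Tcirg1 changed less, with 314 CPM, 355 CPM and 446 CPM. Ostm1 was 19.4 CPM, 31.1 CPM and 48.4 CPM, and Clcn7 was 64.0 CPM, 64.1 CPM and 78.4 CPM. The summed level of the 8 cathepsins, which leaves out Ctsk, was 5282 CPM, 3190 CPM and 2853 CPM. Ctsk itself, by which the cells were split, was 0 CPM, 700 CPM and 6228 CPM. Of the 8 cathepsins, 4 were lower at each step, where 26.8% of all genes were. Ctsc fell through the parts at 862 CPM, 324 CPM and 81.1 CPM, Ctss at 618 CPM, 393 CPM and 171 CPM, and Lamp1 at 622 CPM, 333 CPM and 186 CPM. Ctsl, with 290 CPM, 223 CPM and 304 CPM, did not follow this order. The macrophage marker C1qa moved with these parts at 958 CPM, 252 CPM and 27.3 CPM, and its part in the order was not tested. Hbb-bs, at 4766 CPM, 3779.5 CPM and 5451 CPM, did not follow the order. The osteoclast marker Acp5 was 882 CPM, 2408 CPM and 5621 CPM. The 61 cells without Ctsk took their name from their sub-clusters. With this C1qa level the name is less sure for them, and the values of the osteoclast-like class include them.

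**Figure D5:**
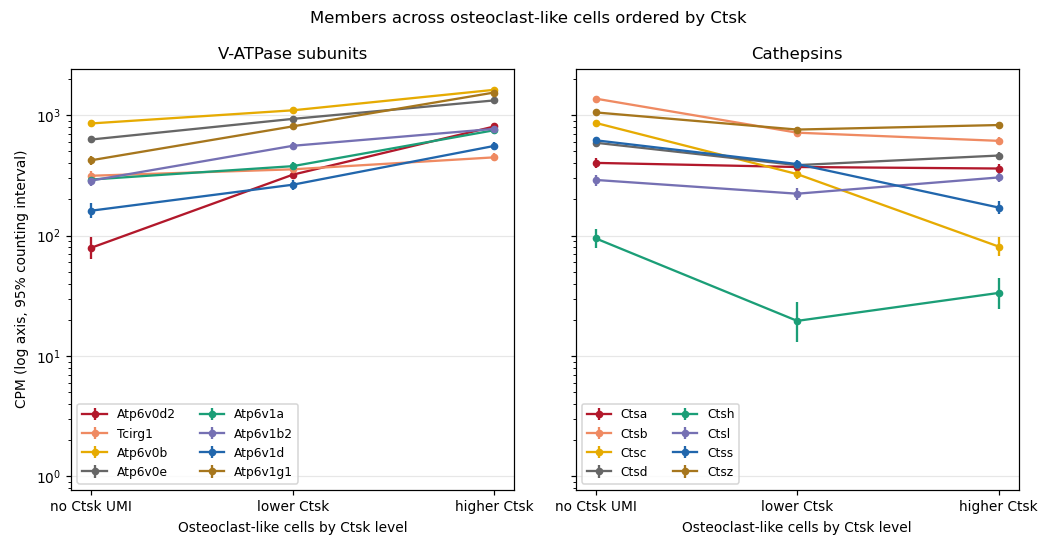
Level in CPM, on a log axis with 95% counting intervals, of 8 V-ATPase genes (left) and the 8 cathepsins (right) in osteoclast-like cells with no Ctsk UMI (61 cells), with Ctsk at or under the median of the others (53 cells) and above it (52 cells). The 8 pump genes are higher at each step, and Ctsc and Ctss are lower at each step.

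The sub-cluster of 97 osteoclast-like cells without the haemoglobin signal had a pump sum of 8380 CPM, a cathepsin sum of 3615 CPM and 547.6 CPM of Atp6v0d2. The 69 cells with it had 5907 CPM, 3771 CPM and 280.5 CPM. Both sub-clusters differed in more than haemoglobin. In the 69 cells the cell cycle gene Top2a was 520 CPM, against 50.1 CPM in the 97 cells, and Ctsk was 1384 CPM against 3397 CPM. The cause of the lower pump sum was not tested. With the haemoglobin-rich and S100a8-rich sub-clusters left out, 7 rather than 4 genes were at least 2-fold higher in osteoclast-like than in macrophage-like cells, where 8.23% of all genes were, and 8 were lower, where 16.2% were. With cells that carried a C1q UMI or, among macrophage-like cells, a Ctsk, Ocstamp or Dcstamp UMI left out, 10 were higher. A limit of 5% mitochondrial UMIs left 38 osteoclast-like and 49 macrophage-like cells and gave 2, and a limit of 20% gave 9. The share of all genes was not counted in the C1q and mitochondrial settings, so these counts have no background. The C1q genes, Ctsk, Ocstamp and Dcstamp were themselves naming markers of the compared classes. The count of lower genes stayed within 1.5 times of 8 in every alternative.

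Osteoclast-like cells were next set against other leukocytes. At least 2-fold higher were 22 of the 28 genes compared, where 14.8% of all genes were, and 2 were at least 2-fold lower (Ctsh and Lamp2), where 14.9% were. At a minimum of 1000 genes per cell neither was past 2-fold (Ctsh from -1.15 to -0.59 and Lamp2 from -1.10 to -0.85 on the log2 scale), and with 10 CPM added only Ctsh was. The median log2 ratio was 2.12 over the pump genes and 1.38 over the cathepsins, beside 0.07 over all genes. These ratios are to the pooled UMIs of other leukocytes, whose classes differed. In monocyte-like cells the cathepsin sum was 4328 CPM, above the 3690 CPM of osteoclast-like cells. The pump sum was 2765 CPM in monocyte-like cells and 7194 CPM in osteoclast-like cells. All 8 V1 genes were among the 22, led by Atp6v1b2 at 552 CPM against 70.3 CPM (log2 ratio 2.97, 2.89 to 3.06). Tcirg1 had a log2 ratio of 2.67 (2.57 to 2.76) and Clcn7 one of 2.58 (2.35 to 2.80). Ctsa was the cathepsin with the highest ratio, at 376 CPM against 73.4 CPM (log2 ratio 2.36). Macrophage-like cells were at least 2-fold higher than other leukocytes for 22 of 29 genes, where 16.4% of all genes were, and at least 2-fold lower for 0, where 11.8% were. All 8 cathepsins were among these 22, from 1.91 for Ctsh to 3.56 for Ctsb on the log2 scale.

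Other leukocytes are a mixture. Their pump sum went from 2765 CPM in monocyte-like cells (2723 to 2806) through 1945 CPM in dendritic cell-like cells, 1672 CPM in neutrophil lineage-like cells, 1166 CPM in B lineage-like cells and 1065 CPM in basophil or mast lineage-like cells to 979 CPM in T or NK-like cells (859 to 1112, 30 cells). The sum of the 8 cathepsins had a far wider range, from 4328 CPM in monocyte-like cells and 2530.5 CPM in dendritic cell-like cells down to 638 CPM in neutrophil lineage-like cells and 313 CPM in B lineage-like cells (300.3 to 325). Ctsg, the gene of cathepsin G, is not among the 8. It was 1208 CPM in neutrophil lineage-like cells, 583 CPM in basophil or mast lineage-like cells, 28.3 CPM in monocyte-like cells and 2.19 CPM in B lineage-like cells. The ratio of pump to cathepsin sum was 0.639 in monocyte-like cells and 3.73 in B lineage-like cells. Monocytes are cells from which macrophages and osteoclasts can arise. The cathepsins of macrophage-like cells were all above those of monocyte-like cells, with a median log2 ratio of 0.99. Of the 17 pump genes compared, 16 were higher as well, with a median of 0.77. The median over all genes was 0.15, and the share of all genes above 0 was not counted. At least 2-fold higher in macrophage-like than in monocyte-like cells were 7 of 29 genes, where 13.5% of all genes were, and 0 were at least 2-fold lower, where 8.39% were. The 7 were Ctsa, Ctsb, Ctsd, Ctsz, Tcirg1, Atp6v0a1 and Atp6v0d2. Ctsd had 1732 CPM against 516 CPM (log2 ratio 1.75, 1.68 to 1.81). Atp6v1e1 was the 1 pump gene with a ratio below 0, at 227 CPM against 276 CPM (log2 ratio -0.28).

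Against skeletal cells, 19 of 29 genes were at least 2-fold higher in osteoclast-like cells, where 24.4% of all genes were, and 1, Lamp2, was at least 2-fold lower, where 21.6% were. The lower count was 2 or 3 in 10 of the 16 alternative settings. For these the share of all genes was not counted, so the counts have no background. Ctsh, at -0.94 on the log2 scale, lay between -1.88 and -0.57 over the 16. The highest ratios after Atp6v0d2 were those of Ctss (382 CPM against 6.70 CPM, log2 ratio 5.83), Atp6v1b2 (552 CPM against 20.6 CPM, 4.75) and Tcirg1 (375 CPM against 14.7 CPM, 4.67). Macrophage-like cells were at least 2-fold higher for 26 of 29 genes, where 24.7% of all genes were, and at least 2-fold lower for 0, where 21% were. Ctss had the highest ratio, 1251 CPM against 6.70 CPM (log2 ratio 7.54), and Atp6v0a2 the lowest, 29.1 CPM against 26.99 CPM (0.11).

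Skeletal cells nevertheless held cathepsins at levels that differed by class. Ctsz was 794 CPM in chondrocyte-like cells (784 to 804), close to its 871 CPM in osteoclast-like cells, and 90.6% of thinned chondrocyte-like cells had a UMI of it. It was 455 CPM in hypertrophic chondrocyte-like cells and 238 CPM in osteoblast-like cells. Ctsl went the other way, with 81.0 CPM in chondrocyte-like cells, 329 CPM in osteoblast-like cells, 433 CPM in marrow stroma-like cells and 488 CPM in fibroblast-like cells; the last was close to the 497 CPM of macrophage-like cells and the 493 CPM of endothelial-like cells. Ctsb followed the same order, from 115 CPM in chondrocyte-like cells to 366 CPM in fibroblast-like cells. Ctsh was 205 CPM in osteoblast-like cells and 131 CPM in marrow stroma-like cells, both above the 46.6 CPM of osteoclast-like cells. Ctsc was 165 CPM in osteoblast-like and 168 CPM in marrow stroma-like cells, where 46.4% and 49.8% of thinned cells had a UMI, against 1.93% of chondrocyte-like cells. Ctss, by contrast, had a UMI in 0.642% of thinned chondrocyte-like cells and 3.56% of thinned osteoblast-like cells, against 96.7% of macrophage-like cells.

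Osteoblast-like and hypertrophic chondrocyte-like cells, the classes that the reporter links, were compared after the data had been seen. At least 2-fold higher in osteoblast-like cells were 6 of 28 genes (Tcirg1, Ctsb, Ctsc, Ctsh, Ctsl and Ctss), where 20.7% of all genes were, and 4 were at least 2-fold lower (Atp6v0a4, Atp6v0e, Atp6v1a and Ctsd), where 10.8% were. Atp6v0a4, known from acid-secreting cells of the kidney and inner ear, was 28.6 CPM in hypertrophic chondrocyte-like cells (26.1 to 31.3) and 0.495 CPM in osteoblast-like cells (log2 ratio -5.85, -7.07 to -4.86). It was 6.22 CPM in chondrocyte-like cells, 4.05 CPM in fibroblast-like cells and at most 1.81 CPM in the other named classes. Tcirg1 was 5.13 CPM in hypertrophic chondrocyte-like cells and 32.9 CPM in osteoblast-like cells. Its share of the a-subunit UMIs was 6.90% (5.54 to 8.47) and 43.9% (41.1 to 46.7) respectively. The pump sum was 1654 CPM (1634 to 1674) in hypertrophic chondrocyte-like cells and between 1079 and 1281 CPM in the other skeletal classes. All 8 V1 genes had a log2 ratio below 0 in osteoblast-like against hypertrophic chondrocyte-like cells, with a median of -0.54, beside 0.17 over all genes. The share of all genes below 0 was not counted.

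Osteoblast-like cells above the reporter cutoff of 14 WPRE UMIs (260 of 970 cells, 26.8%), taken as descendants of hypertrophic chondrocytes, were compared with the remaining osteoblast-like cells. WPRE is a sequence in the tail of the reporter transcript. Of the 530 hypertrophic chondrocyte-like cells, a class that includes pre-hypertrophic ones, 87 passed the same cutoff (16.4%, 13.4 to 19.8). The paper chose this cutoff to match its own measured frequency of tdTomato-positive hypertrophic chondrocytes, which was higher. Because the class here is broader, its share does not measure how many hypertrophic chondrocytes the cutoff detects. The remaining osteoblast-like cells may also hold descendants. The cutoff was on UMIs without regard to the depth of the cell. Of 27 genes compared, 0 were at least 2-fold higher, where 1.22% of all genes were, and 0 at least 2-fold lower, where 1.93% were. The log2 ratios ranged from -0.38 for Ctss to 0.54 for Atp6v1b2, with a median of 0.05.

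Other genes of the same organelle were counted between osteoclast-like and macrophage-like cells. Of 27 lysosomal hydrolases and activators compared, 2 were at least 2-fold higher in osteoclast-like cells and 9 lower, where 8.0% and 14.4% of all genes were, with a median log2 ratio of -0.68. The higher ones were Acp5, a naming marker, and Arsb, an arylsulfatase that degrades glycosaminoglycans (87.2 CPM against 18.8 CPM, log2 ratio 2.21). Among the lower ones were Lipa, the acid lipase (40.2 CPM against 246 CPM, -2.62), Grn, which encodes progranulin (339 CPM against 1013 CPM, -1.58), and Psap, which encodes the saposins (752 CPM against 2172 CPM, -1.53). Of 4 other cathepsins compared, Ctsk, itself a naming marker, was 2432 CPM against 66.0 CPM, and Lgmn, which encodes the cathepsin-processing protease legumain, was 266 CPM against 1547 CPM (log2 ratio -2.54). Of 11 other lysosomal membrane proteins, 0 were at least 2-fold higher and 4 lower (Slc11a1, Scarb2, Cln3 and Cd164), beside the same shares of all genes, with a median of -0.77; without the haemoglobin-rich and S100a8-rich sub-clusters 6 were lower.

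A list of 7 genes was drawn up around acid secretion by osteoclasts (Car2, Slc4a2, Plekhm1, Snx10, Rab7, Rac2 and Cotl1). Being listed does not mean that a gene, such as Rac2 or Cotl1, takes part in acid secretion itself. Of the 7, 3 were at least 2-fold higher in osteoclast-like cells, where 8.0% of all genes were, and 1, Cotl1, lower, where 14.4% were. Car2, whose carbonic anhydrase supplies protons, was 173 CPM against 22.8 CPM (log2 ratio 2.92, 2.57 to 3.30). It was 3184 CPM in erythroid-like cells, and 125 CPM and 225 CPM in the osteoclast-like sub-clusters without and with haemoglobin. Slc4a2, a chloride-bicarbonate exchanger, was 128 CPM against 24.8 CPM (2.37), and Snx10, a sorting nexin, was 145 CPM against 67.04 CPM (1.12). Of the 4 MiT/TFE factors, Mitf was higher, at 57.1 CPM against 22.5 CPM (log2 ratio 1.35, 0.95 to 1.76), and Tfeb lower, at 10.5 CPM against 24.1 CPM (-1.20, -1.77 to -0.64), while Tfe3 and Tfec lay between. The 8 genes whose promoters hold the extended E-box were on both sides: Atp6v0b, Atp6v0e, Atp6v1a and Clcn7 were higher in osteoclast-like cells, and Atp6v0d1, Ctsa, Ctsd and Lamp1 were lower. Of 6 cathepsin inhibitors compared, Cst7 was at least 2-fold higher (18.6 CPM against 6.93 CPM), and 3, the stefins Stfa1, Stfa2 and Stfa3, were at least 2-fold lower. The lower calls rested on the 11 macrophage-like cells rich in S100a8. Stfa1 was 121 CPM in osteoclast-like cells, 12485 CPM in those 11 cells, 36.3 and 31.5 CPM in the larger macrophage-like sub-clusters and 25655 CPM in neutrophil lineage-like cells. Stfa2 was 13.1 CPM in osteoclast-like cells, against 1271 CPM in the 11 cells and 2.05 and 3.08 CPM in the larger sub-clusters. Stfa3 was 19.8 CPM, against 2201 CPM, 10.9 CPM and 1.54 CPM in the same order. Without the haemoglobin-rich and S100a8-rich sub-clusters no inhibitor was at least 2-fold lower: the log2 ratio was 0.63 for Stfa1 (0.23 to 1.04) and 2.12 for Stfa2 (0.86 to 3.58), and Stfa3 was under 10 CPM in both groups.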

How the data were processed

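Single cells of 1 library were measured. The authors deposited UMI counts per gene and barcode without normalization. By the file header, the methods and the labels, reads were counted with Cell Ranger 3.1.0 against the mm10 genome, to which the reporter sequences tdTomato and WPRE had been appended. The sources used here do not give the annotation release. The 4 entries were counted together, and 0 other columns of per-sample values exist. The reporter came from a second deposited count matrix.

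A barcode was kept when it had 1600 genes or more and no more than 10% of its UMIs in mitochondrial genes and 50% in ribosomal protein genes. Scrublet (expected rate 10%) marked 588 of 14181 barcodes (4.15%). Among the 8255 cells that passed the limits above, 460 were marked, and these stayed in the main values. Counts scaled to 10000 were clustered with scanpy 1.11.5 (2000 variable genes without the 38 genes, 30 components, 20 neighbours, Leiden resolution 1), and 398 phagocytes again at 0.4 on 20 components and 15 neighbours. A cluster took the marker list with the most genes among its top 10 by fold (10 CPM added), with at least 3 markers at 10 CPM. With no marker in the top 10, it took the list with the highest mean z-score across clusters. That score had to be at least 1, and the cluster had to pass a depth limit. All monocyte-like cells, and some hypertrophic chondrocyte-like and endothelial-like cells, were named by this second rule. These names need not match those of the study.

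Levels are UMIs of a class per 1000000 (CPM) with exact Poisson intervals. Ratios carry exact conditional binomial intervals and were called at 2-fold among genes with at least 10 CPM in 1 group. For 0 counts a limit of 3 counts was used for the level. In ratios any count under 3 was set to 3, while the intervals used the unchanged counts. The ratio method was tested on simulated counts drawn with Poisson error only. That test holds no variation between cells, clusterings or animals, so it cannot show how these affect the ratios. Comparisons of osteoblast-like with hypertrophic chondrocyte-like cells, of macrophage-like with monocyte-like cells and by reporter, and the split by Ctsk, were added after seeing the data. Promoters are RefSeq GRCm38.p6 and coordinates GENCODE M21. Named genes are those of subunits with more than 1 gene, and the accessory, exchanger, glycoprotein and cathepsin genes. Also named are other members past 2-fold between osteoclast-like and macrophage-like cells, and listed genes past that fold. Atp6v0b, Atp6v1a, Atp6v1f, Atp6v1h and Ctsg were named beyond these. The members and lists were chosen with earlier results of these data known.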

Additional observations from a re-analysis of the deposited data

How the results depend on the processing

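Of 2288 ratios recomputed under 16 alternative settings, 2216 kept their side of 2-fold, 42 newly passed it and 30 no longer did. The sign changed in 7, of which 0 were past 2-fold: Atp6v1h (-0.01 thinned) and Clcn7 (-0.13 at 5% mitochondrial UMIs) against macrophage-like cells, Lamp1 against other leukocytes (-0.07 and -0.21 at 5% and 20%) and, without cells that carried a UMI of the other class, Ctsc (-0.84) and Lamp1 (-0.80) against other leukocytes and Lamp1 (-0.56) against skeletal cells. Of 160 recomputed counts of genes, 138 stayed within 1.5 times of the main count. The number of genes at least 2-fold higher in osteoclast-like than in macrophage-like cells, 4, became 2 at a limit of 5% mitochondrial UMIs, 9 at 20%, 10 without cells that carried a UMI of the other class and 7 without the haemoglobin-rich and S100a8-rich sub-clusters, the last alternative chosen after seeing the data. For that last alternative alone was the share of all genes counted. The 2 genes lower in osteoclast-like cells than in other leukocytes became 0 at a minimum of 1000 genes per cell and 1 with 10 CPM added. The 1 gene lower than in skeletal cells became 2 or 3 in 10 settings. The 0 genes lower in macrophage-like than in skeletal cells became 1 in 6 settings. The cause was not tested.

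As percent of a group's UMIs, the pump sum in osteoclast-like cells, 0.72, was 0.69 at 1000 genes and as a mean over cells, 0.68 thinned to 5000 UMIs, 0.75 without doublets, with 3000 variable genes or with the members among them, 0.60 and 0.90 at 5% and 20% mitochondrial UMIs, 0.93 without cells with a UMI of the other class and 0.84 without the sub-clusters. The cathepsin sum there, 0.37, was 0.38, 0.39, 0.40, 0.34, 0.31, 0.26 and 0.36 in the same settings, 20% excepted. In macrophage-like cells the pump sum moved to 0.41 or 0.42 and the cathepsin sum, 0.99, to 1.0, 0.94, 1.07, 0.87, 1.01, 0.92, 0.93, 1.03 or 1.05. In other leukocytes the pump sum, 0.17, lay at 0.16, 0.17, 0.18 or 0.19 and the cathepsin sum, 0.13, at 0.11, 0.12, 0.14, 0.15, 0.16 or 0.17. In skeletal cells both lay at 0.12, 0.13 or 0.14. In each of these settings the pump sum was higher and the cathepsin sum lower in osteoclast-like than in macrophage-like cells.

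No paired analysis was possible because 1 library was measured, and for the same reason no replicate was left out.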
